A study of Homo sapiens with 2 samples.

Results

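The galectins are proteins that bind beta-galactoside sugars through a conserved carbohydrate-recognition domain, and they were followed here in gastric cancer cells in which one of them, galectin-3, had been silenced. The genes described are the 8 galectin-type genes LGALS1, LGALS2, LGALS3, LGALS4, LGALS8, LGALS9, LGALS12 and LGALSL, together with LGALS3BP, which encodes a glycoprotein ligand of galectin-3. They were chosen by symbol in the platform annotation, and every probe set carrying 1 of these symbols was used. The 9 genes, of 19775 named on the array, had 16 probe sets of 54675. The series holds 1 array of AGS cells treated with a small interfering RNA (siRNA) against galectin-3 and 1 array of AGS control cells. AGS is an established line of epithelial cells, derived from a human adenocarcinoma of the stomach, and both arrays carry that same background. The sources used here do not give the siRNA sequence, the time after transfection or the treatment of the control cells. With 1 array per group nothing below has a replicate check, no test was made, and precision is limited by the number of arrays.

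Galectins differ in how their sugar-binding domains are arranged. Galectin-1 and galectin-2 are prototype galectins with 1 domain that pair into dimers, galectin-3 is the chimera type with a long repetitive tail through which it forms oligomers, and galectin-4, galectin-8, galectin-9 and galectin-12 are tandem-repeat galectins that carry 2 different domains in 1 chain. Outside the cell they cross-link glycoproteins, and inside it they act among other places at damaged endosomes and lysosomes, whose exposed sugars they bind. In the stomach and gut, galectin-3 and galectin-4 are known as products of the epithelium.

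Values are MAS5 signals on a linear scale, and a signal is compared only between the arrays and never between probe sets. A probe set was read as measured where its signal passed a background floor of 109.5 on the silenced array or 138.4 on the control array, set from probe sets for olfactory receptor genes. The log2 ratio is silenced over control. A difference was counted where it reached 2-fold, a log2 ratio of 1 in size. Of the 10514 genes measured, 348 (3.31%) reached 2-fold in the higher direction and 323 (3.07%) in the lower, together 6.38%, and the median log2 ratio was -0.02. Between probe sets of one gene the log2 ratio varied with an SD of 0.32 over 4728 genes, a spread that holds no variation from culture to culture. Of the gastric epithelial markers, EPCAM, KRT8, KRT18, KRT19 and CDH1 were above the floor on both arrays. All 5 had ratios above 0 with a median of 0.26 (0.03 with poly-A controls set equal), and none reached 2-fold. The keratin KRT19 gave 27615.6 on the silenced array and 17247.0 on the control array (0.68), the cadherin CDH1 532.0 on the silenced array and 298.1 on the control array (0.84), and EPCAM had a ratio of 0.04. The gastric secretory and junction markers TFF1, TFF2, MUC5AC, MUC6, GKN1, GKN2 and CLDN18 were under the floor on both arrays. All 8 leukocyte markers on the array were under it as well, with summed signals of 209 on the silenced array and 263 on the control array. Among 7 fibroblast markers only COL1A1 passed the floor on both arrays, with 1502.0 on the silenced array and 816.3 on the control array and log2 ratios of -0.55 to 0.53 on its other probe sets, and THY1 passed on the silenced array alone (119.1, and 90.2 on the control array). Of 4 endothelial markers PECAM1 passed on the silenced array alone (121.0, and 127.4 on the control array). Because these are bulk samples, fewer cells that express a gene and less of its RNA in each cell cannot be told apart.

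Silencing was checked first on the targeted gene. LGALS3, which encodes galectin-3, had a signal of 2699.8 on the silenced array and 20206.3 on the control array on the probe set that stands for the gene. It was 7.48-fold lower, with 13.4% of the control signal left and a log2 ratio of -2.90. The 9579 genes above the floor on both arrays were divided into 10 equal bins by mean signal, and among the 958 genes of its bin, whose ratios had a robust SD of 0.27, no other had a ratio as low. The signal that remained was still far above the floor of the silenced array. The other LGALS3 probe set gave 55.6 on the silenced array and 57.8 on the control array, under the floor on both, and so neither adds to nor goes against this value.

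Of the 9 genes, 7 were measured and LGALS2 and LGALS12 were not. Signals passed the floor on both arrays for 6 of the 7. By the 2-fold rule 1 of the 7 was higher (LGALSL), 2 were lower (LGALS3 and LGALS4) and 4 passed in neither direction. The shares over all genes are 3.31% higher, 3.07% lower and 6.38% either way, and LGALS3 is the gene that was targeted. Apart from LGALS3, 4 of 6 measured members had a ratio above 0. LGALS9 is among the 4, and passed the floor on the silenced array alone, so it could only count as higher. The median log2 ratio was 0.76 over the 7 members, beside -0.02 over all genes measured. This median is the lower bound of LGALS9 itself, which the floor sets, and it was 0.85 with a floor from olfactory receptor genes without pseudogenes. Other settings change which genes enter the median. With no floor and an offset of 50 it was 0.15 over all 9 genes, LGALS2 and LGALS12 included. Without _s_at and _x_at probe sets it was 0.29, with LGALS3, LGALS8 and LGALS9 left out. At a smaller size of 1.5-fold, chosen after the values were seen, 4 of the 7 members were higher and 2 lower, beside 10.6% and 10.4% of all genes measured. LGALS9, with the same limit, is again among the 4 that were higher.

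**Figure D1:**
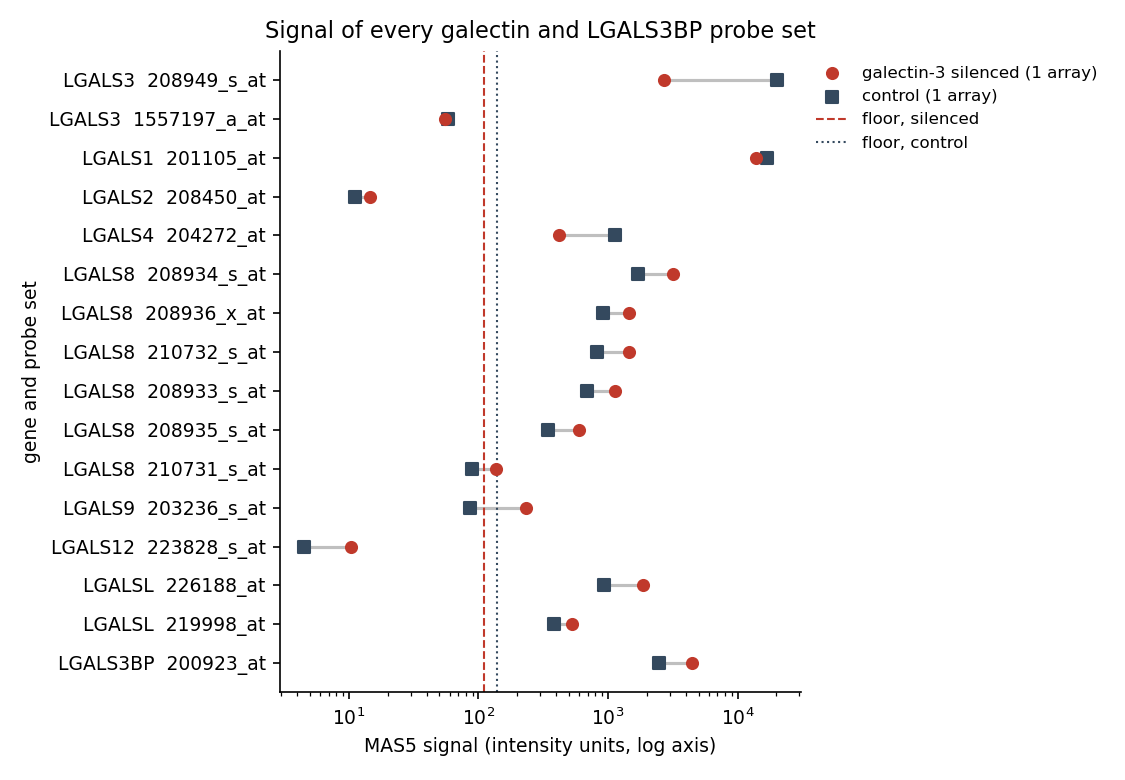
MAS5 signal (log axis) of all 16 probe sets of the 9 genes on the galectin-3 silenced array (red circles) and the control array (dark squares), with each array's floor as a vertical line. The stronger LGALS3 probe set and LGALS4 lie lower on the silenced array, the LGALS8, LGALSL and LGALS3BP probe sets lie higher on it, and LGALS2 and LGALS12 lie under both floors.

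Among the prototype galectins, galectin-1 was close to equal on the arrays. LGALS1, whose product is secreted and binds matrix and T-cell glycoproteins, had a signal of 13946.4 on the silenced array and 16760.9 on the control array. The log2 ratio of -0.27 is of the size of the robust SD of genes at similar signal (0.27), and 20.4% of these genes had a ratio at least as low. LGALS2, known from the gut epithelium, gave 14.6 on the silenced array and 11.1 on the control array. Both values are under the floor, so no fold is given, and a low level of LGALS2 was not detectable on these arrays.

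The tandem-repeat galectins did not move together. LGALS4 was lower, LGALS8 was higher by less than 2-fold, LGALS9 passed the floor on the silenced array only, and LGALS12, known from adipocytes, was under the floor with signals of 10.3 on the silenced array and 4.5 on the control array.

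LGALS4 encodes galectin-4, a galectin of the digestive tract that takes part in carrying glycoproteins to the apical membrane. Its signal was 421.6 on the silenced array and 1133.1 on the control array, which is 2.69-fold lower with a log2 ratio of -1.43. Only 10 of 958 genes (1.04%) in the same signal bin, LGALS4 among them, had a ratio this low. Over all genes measured 86 (0.818%) lay below it. LGALS4 has 1 probe set on the array, so no other probe set repeats the value. After LGALS3 it had the lowest ratio of the 7 measured members.

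LGALS8 encodes galectin-8, which binds sugars exposed on damaged vacuoles and recruits the autophagy receptor CALCOCO2. It is the member with the most probe sets, and 5 of its 6 were above the floor on both arrays. The probe set with the highest signal gave 3163.3 on the silenced array and 1711.7 on the control array, a 1.85-fold difference. The third strongest gave 1444.7 on the silenced array and 829.8 on the control array. The weakest of the 5 gave 595.9 on the silenced array and 341.8 on the control array. All 5 were higher on the silenced array, by 1.60-fold to 1.85-fold, and none reached 2-fold. Their log2 ratios had a median of 0.80 and an SD of 0.08, narrower than the 0.32 found between probe sets of one gene in general. These probe sets read the same RNA samples, and some may overlap in sequence, so they are not replicates. The sixth probe set gave 136.3 on the silenced array and 88.7 on the control array, and since the first value is under the control array's floor it has no direction. Of the 958 genes in the same signal bin as the strongest probe set, 4.59% had a ratio at least as high.

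LGALS9 encodes galectin-9, a ligand of the T-cell receptor TIM-3 and a gene known to be induced by interferons. Its 1 probe set gave 234.0 on the silenced array and 85.9 on the control array. The control value is under that array's floor, so the difference is a bound of at least 1.69-fold higher. The floor decides how large this bound is. Of the 135 olfactory receptor probe sets behind it, 28 belong to pseudogenes, and without these the floors were 82.9 on the silenced array and 87.8 on the control array, which gives at least 2.67-fold higher and takes LGALS9 past 2-fold. This setting was chosen after the data were seen. The probe set is of the _s_at kind, which can read several transcripts, and the near-identical copies LGALS9B and LGALS9C have no probe set named for them alone here, so a share of the signal from them was not tested.

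LGALSL encodes a galectin-related protein that has the galectin fold but is not known to bind lactose. Its stronger probe set gave 1874.8 on the silenced array and 926.9 on the control array. This is 2.02-fold higher, a log2 ratio of 1.02 that stands only just past the size counted. The other probe set gave 529.0 on the silenced array and 381.4 on the control array, 1.39-fold higher with a log2 ratio of 0.47. Both probe sets were higher on the silenced array, but they differ in size by more than the usual SD between probe sets. With the median of both, 0.74, LGALSL did not reach 2-fold.

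LGALS3BP encodes galectin-3 binding protein, a secreted and heavily glycosylated scavenger-receptor protein that is bound by galectin-3 and other galectins and is known to be induced by interferons. Its signal was 4480.9 on the silenced array and 2485.7 on the control array, 1.80-fold higher with a log2 ratio of 0.85. LGALS3BP has no other probe set on the array to repeat the value. In the same signal bin 5.01% of genes had a ratio at least as high, and the robust SD there was 0.37. The transcript of the ligand was higher on the array on which that of galectin-3 was 7.48-fold lower.

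**Figure D2:**
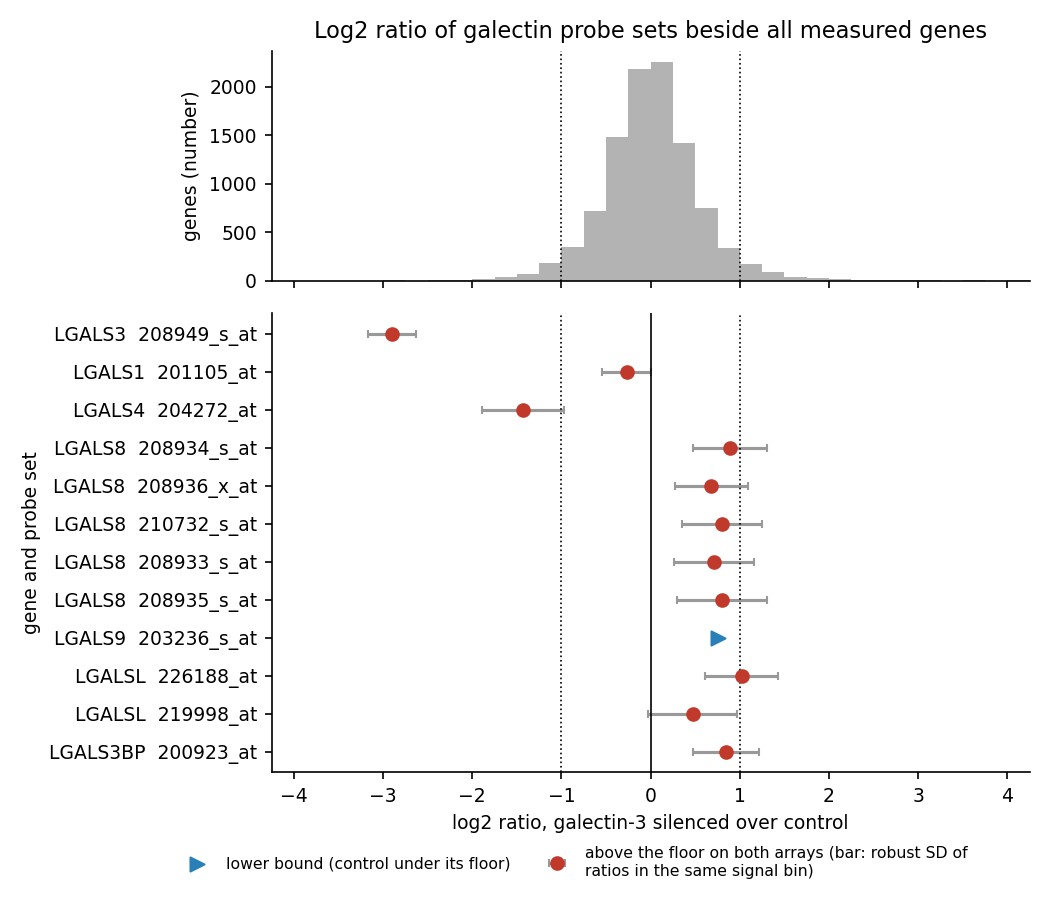
Number of measured genes by log2 ratio, silenced over control (upper panel, grey bars), above the log2 ratio of each member probe set (lower panel). Bars on the red points are the robust SD of the ratios of genes in the same signal bin, the triangle is the lower bound for LGALS9, and dotted lines mark 2-fold. LGALS3 at -2.90 lies outside the range where genes are frequent, and the 5 LGALS8 probe sets lie between 0.68 and 0.89.

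Interferon-stimulated genes were higher on the silenced array, and since LGALS9 and LGALS3BP are known members of that response, their values are set beside it. Of 41 measured interferon-stimulated genes, 30 reached 2-fold in the higher direction and 0 in the lower, with a median log2 ratio of 1.36. Among the 30, IFI16, IFI44L, XAF1, TRIM22 and GBP1 passed the floor on the silenced array alone. Such genes could only count as higher. Over all genes measured the shares were 3.31% and 3.07%, and the median was -0.02. The list was chosen with earlier results of these data known. OAS1, an enzyme that senses double-stranded RNA, gave 8564.4 on the silenced array and 1644.8 on the control array, 5.21-fold higher. The DNA sensor IFI16 was at least 5.71-fold higher, the RNA-binding antiviral protein IFIT2 4.22-fold and the chemokine CXCL11 3.99-fold. OAS3, of the same enzyme family as OAS1 and named after its value was seen, went the other way, with 757.4 on the silenced array and 1513.0 on the control array, just short of 2-fold lower. LGALS3BP, at 0.85, lies below most of these genes, since 32 of the 40 with a direction had a larger ratio. LGALS9 has no settled place among them, because its value is a lower bound. A value larger than that bound was found for 33 of 40 genes with the floor used here and for 19 of 41 without olfactory pseudogenes. LGALS8 (0.89) and LGALSL (1.02), which are no members of the list, had ratios close to that of LGALS3BP. Whether the interferon-stimulated genes and the galectin differences have a common source was not tested.

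Promoter sequence was read for the members that were higher, because the interferon-stimulated response element is a short motif by which interferon-activated factors are known to bind such genes. RefSeq promoter windows of build GRCh38.p14 were matched by symbol for 7 of the 9 genes, in 9 windows, 3 of them for LGALS8. LGALS1 and LGALS12 had none. A window runs from 250 bases before to 30 bases after the gene's start. The motif, GAAA followed by any 2 bases and GAAA again, was searched on both strands. It was found in LGALS3BP and LGALS9 and in no window of LGALS2, LGALS3, LGALS4, LGALS8 or LGALSL. It lay at bases -58 to -49 from the start in LGALS3BP, and from -9 across the start in LGALS9, there on the opposite strand. The windows of both are shown with the motif in capitals, and that of LGALSL, the member counted as 2-fold higher, for comparison. They are LGALS3BP at chr17:78979894-78980173 on the minus strand, LGALS9 at chr17:27630938-27631217 on the plus strand and LGALSL at chr2:64453912-64454191 on the plus strand.
LGALS3BP: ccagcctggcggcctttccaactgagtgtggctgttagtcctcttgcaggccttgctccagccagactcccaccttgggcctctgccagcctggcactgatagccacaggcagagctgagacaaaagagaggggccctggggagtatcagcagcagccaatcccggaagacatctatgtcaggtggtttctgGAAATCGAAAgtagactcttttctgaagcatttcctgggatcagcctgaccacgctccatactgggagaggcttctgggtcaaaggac
LGALS9: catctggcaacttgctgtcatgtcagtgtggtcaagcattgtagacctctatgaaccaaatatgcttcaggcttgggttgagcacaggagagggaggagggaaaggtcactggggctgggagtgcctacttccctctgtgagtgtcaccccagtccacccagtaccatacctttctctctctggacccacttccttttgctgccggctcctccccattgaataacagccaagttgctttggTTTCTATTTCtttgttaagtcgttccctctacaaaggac
LGALSL: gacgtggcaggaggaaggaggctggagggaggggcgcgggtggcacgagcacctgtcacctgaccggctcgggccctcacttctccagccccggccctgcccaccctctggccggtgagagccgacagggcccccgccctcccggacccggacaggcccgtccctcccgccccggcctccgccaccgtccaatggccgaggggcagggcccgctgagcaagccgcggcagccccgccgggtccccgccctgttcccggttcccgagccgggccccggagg

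The motif was found in 3.39% of all 35116 promoter windows, and in at least 1 window of 24 of the 38 interferon-stimulated genes that have a window. Of 321 measured genes with the motif, 34 (10.6%) were higher by the 2-fold rule and 7 (2.18%) lower. Of 8387 measured genes with a window and without the motif, 243 (2.90%) were higher and 263 (3.14%) lower. The median log2 ratio was 0.10 with the motif and -0.02 without. The genes with the motif include interferon-stimulated genes of the list above, so their share is not independent of that list. How many of the 34 are on that list was not counted. A match is a match of letters and not a measured binding site.

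Of the other motifs searched, also on both strands, the gamma-activated site (TTC, any 3 bases, GAA; 7.30% of all windows) and the AP-1 site TGANTCA (7.35%) were in no member window. The GC box GGGCGG (44.1% of all windows) was in LGALS3, LGALS8 and LGALSL, and the TATA box TATAAA (11.2%) in 1 window of LGALS8. No matches of different motifs overlapped in these windows. Among measured genes, 6.30% with the AP-1 site were higher by the 2-fold rule, 5.29% with the TATA box and 4.29% with the gamma-activated site. With the GC box the share was 2.91%, beside 3.31% over all genes measured. A share above that of all genes was thus not particular to the interferon-stimulated response element, where it was largest (10.6%).

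Genes linked to galectins by function were counted by list, beside 3.31% higher and 3.07% lower over all genes measured. In lists this small, the low counts past 2-fold below cannot be told from those shares. Of 16 measured surface and matrix glycoproteins that galectin-3 binds, 0 were past 2-fold in either direction, with 7 ratios above 0, 9 below and a median log2 ratio of -0.08. The largest were those of the adhesion molecule CEACAM6 (3608.7 on the silenced array and 4769.8 on the control array, a log2 ratio of -0.40) and the integrin subunit ITGA5 (-0.39). The lysosomal glycoproteins LAMP1 (0.17) and LAMP2 (-0.08), which carry much of the sugar bound by galectin-3, differed by less than the SD between probe sets.

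Of 11 measured intracellular partners of galectin-3, 1 was higher by the 2-fold rule and 0 lower, with a median of 0.19. That gene was NUP98, a nuclear pore protein. It gave 5076.7 on the silenced array and 2323.2 on the control array, but its other 2 probe sets went the other way, with log2 ratios of -0.82 and -0.60, so the gene has no settled direction. GEMIN4, a splicing partner of nuclear galectin-3, had a log2 ratio of -0.58, and CTNNB1, the transcription cofactor beta-catenin, -0.06.

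Of 18 measured genes of the response to damaged lysosomes, in which galectin-3 and galectin-8 are known to act, 0 were past 2-fold in either direction and the median was 0.17. The autophagosome protein MAP1LC3B had signals of 3403.1 on the silenced array and 1914.8 on the control array, a log2 ratio of 0.83, and its other probe set gave 1.49. PRKAA1, a subunit of the energy sensor AMPK, had -0.86, with other probe sets from -0.99 to 0.12. CALCOCO2, the partner of galectin-8, had 0.29 and TRIM16, the ligase that works with galectin-3, 0.74.

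Of 18 measured enzymes that build or cap galectin ligands, 2 were higher by the 2-fold rule and 0 lower, with a median of 0.24. MGAT5, which makes the branched N-glycans that galectin-3 prefers, gave 2875.1 on the silenced array and 1356.3 on the control array, 2.12-fold higher. GCNT1, which branches O-glycans, was 2.20-fold higher, with a log2 ratio of 0.79 on its other probe set.

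LGALS4 is known as a gene of intestinal-type epithelium, so 26 other genes of that epithelium were set beside it. Of the 23 found by symbol on the array, 7 were measured and 16 were under the floor on both arrays. REG4, a secreted lectin-like protein, gave 3174.6 on the silenced array and 7832.6 on the control array, 2.47-fold lower, with -1.35 on its other probe set. MUC13, a membrane mucin, was 2.09-fold higher, with 1.10 on its other probe set. The intestinal transcription factor CDX2 had a log2 ratio of -0.44, VIL1 0.85, TSPAN8 0.39, CDH17 -0.11 and AGR2 -0.50. The list median was -0.11. Of the 7 genes measured, 3 had a ratio above 0 and 4 below. Whether the lower value of LGALS4 goes with a difference in genes of this epithelium was not tested.

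**Figure D3:**
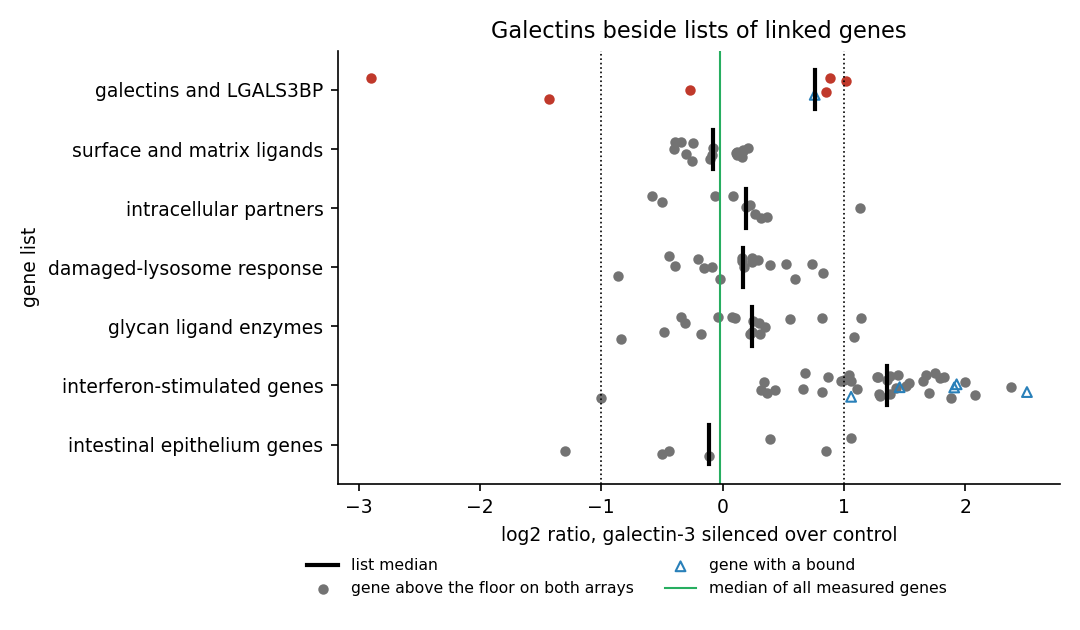
Log2 ratio, silenced over control, of each measured gene with a direction in the galectin set and 6 lists of linked genes, with list medians as black bars and the median of all measured genes (-0.02) as a green line. Interferon-stimulated genes are centred on 1.36, while the other lists of linked genes have medians between -0.11 and 0.24, and the galectins are spread on both sides.

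The direction of each measured member was the same under every processing setting that gave it a direction, while the 2-fold count was not. Settings that change only the floor or the choice of probe sets could not alter LGALS1, LGALS4 and LGALS3BP. Each has a single probe set, well above the floor and of neither the _s_at nor the _x_at kind. LGALS3 ran from -3.14 to -2.72 and LGALS4 from -1.66 to -1.25 on the log2 scale, past 2-fold in every case. LGALS1 ran from -0.50 to -0.08 and never reached 2-fold. LGALS8 (0.65 to 1.07), LGALS3BP (0.62 to 1.03), LGALSL (0.74 to 1.20) and LGALS9 (0.52 to 1.45) lay above 0 throughout, on both sides of 2-fold. The ends of most of these ranges came from setting the hybridization controls equal, which moved the median of all genes to 0.17, or the poly-A controls, which moved it to -0.25, so both shift every gene alike.

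**Figure D4:**
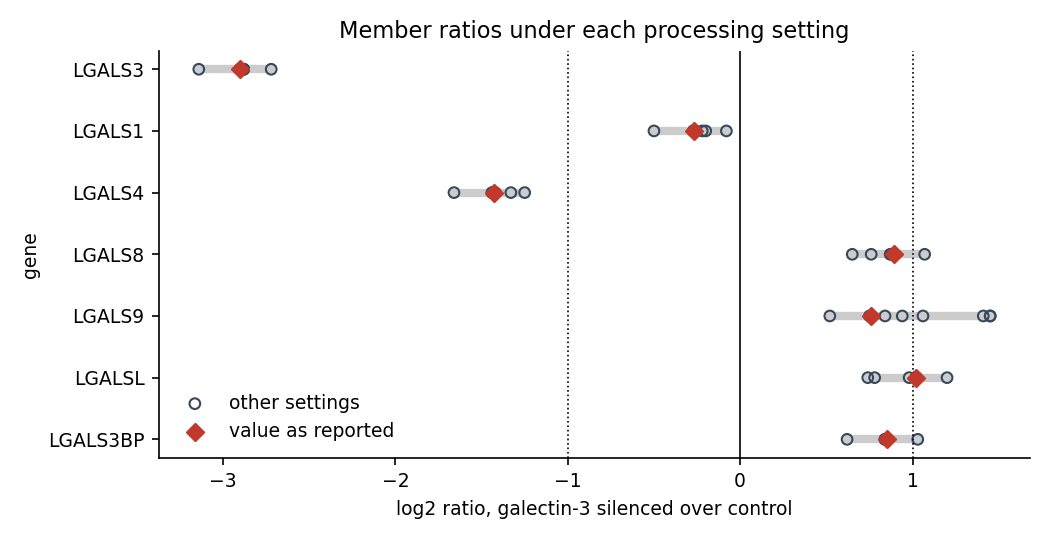
Log2 ratio, silenced over control, of the 7 measured members as reported (red diamonds) and under the other processing settings (open circles), with dotted lines at 2-fold. No member crosses 0 where it has a direction, and LGALS9 has the widest range, from 0.52 to 1.45.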

How the data were processed

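Biotin-labelled RNA from galectin-3 silenced and control AGS cells was read on 1 Affymetrix array each, per the labels. The authors deposited linear intensity values made with MAS5, per the submitters' processing notes, and the version and scaling target are not stated there. The 2% trimmed mean was 500.1 on both arrays, and this scaling was used unchanged. MAS5 treats each array alone, so weak signals are noisy, and with equal means a change in total RNA cannot be seen.

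Probe sets with 1 symbol (41097) were named from the platform annotation. Signals under the floor, the 95th percentile of 135 olfactory receptor probe sets, were raised to it, so a gene above it on 1 array has a bound. A gene is represented by its strongest probe set (mean log2 signal over both arrays), one of the _x_at kind only where it had no other. Robust SDs came from genes above the floor on both arrays, in 10 equal bins of mean signal. All 9 members, and in each other list up to 4 genes past 2-fold or else the largest 2, were to be named. Any other gene was named after its value was seen. The members and lists were chosen with earlier results of these data known. The procedure was tested on simulated data. Python 3.11.15, pandas 2.3.3 and statsmodels 0.14.6 were used.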

Additional observations from a re-analysis of the deposited data

How the results depend on the processing

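Over 11 alternatives no log2 ratio of the 7 measured members changed sign where it had a direction. For LGALS1, LGALS4 and LGALS3BP the alternatives that change only the floor or the choice of probe sets could not alter the ratio. LGALS3, LGALS8 and LGALS9 had no value without _s_at and _x_at probe sets, and LGALS9 had no direction with 2 times the floor. Without a floor LGALS9 stood at 1.45, with the array median as floor at 1.45, and without olfactory pseudogenes, an alternative added after the data were seen, at 1.41.

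The number of members at least 2-fold higher, 1 as reported, was 3 without a floor, where signals in the background count as well, 2 with the array median as floor, 2 without olfactory pseudogenes, 3 with hybridization controls set equal, and 0 with poly-A controls set equal or with probe sets of a gene combined by their median. The number lower, 2 as reported, was 1 without _s_at and _x_at probe sets, which leaves LGALS3 unmeasured. The member median of 0.76 became -0.24 with 2 times the floor, which is the value of LGALS9 there and has no direction (0.29 over the 6 members with one). It was 0.15 with no floor and an offset of 50, where LGALS2 and LGALS12 count as well. Without _s_at and _x_at probe sets, which leaves out LGALS3, LGALS8 and LGALS9, it was 0.29.

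Of the genes past 2-fold, 51.9% were higher as reported, 75.9% with hybridization controls equal and 22.7% with poly-A controls equal. Without a floor 2466 genes were higher and 2459 lower.

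The 30 interferon-stimulated genes counted as higher were 24 without _s_at and _x_at probe sets, 25 with 2 times the floor or poly-A controls equal, and at most 32. In the lists, without a floor, 1 surface ligand was higher and 2 lower, 1 glycan enzyme was lower, 4 intestinal genes were higher, 5 were lower and their median was 0.32, and 1 gastric marker was higher and 1 lower. With the offset of 50, 2 surface ligands and 1 glycan enzyme were lower. With poly-A controls equal, 0 intracellular partners, 0 glycan enzymes and 0 intestinal genes were higher, and 1 lysosome gene, 1 glycan enzyme and 1 interferon-stimulated gene were lower. With hybridization controls equal, 1 lysosome gene, 2 intestinal genes and 1 gastric marker were higher. With probe sets of a gene combined by their median, 0 partners, 1 lysosome gene and 1 glycan enzyme were higher and 1 glycan enzyme was lower. Without _s_at and _x_at probe sets, 0 partners, 1 lysosome gene and 0 intestinal genes were higher. With quantile normalization 1 interferon-stimulated gene was lower. Except where a step's own construction shows it, the cause was not tested. No paired analysis was possible because each group has 1 array.

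Signal over background limits LGALS2, LGALS12 and the control value of LGALS9. No spread between cultures can be had.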

Other observations

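The genes next to the members on the chromosome were read from the RefSeq order, taking the nearest measured protein-coding gene on each side. This was added after the data were seen. DLGAP5, a spindle protein, directly follows LGALS3 with 0 protein-coding genes between them. It gave 1589.1 on the silenced array and 6256.4 on the control array, 3.94-fold lower. MAPK1IP1L on the other side of LGALS3, with 1 protein-coding gene between, had a log2 ratio of 0.40. The nearest measured genes of LGALS4, ACTN4 (0.82, with 3 protein-coding genes between) and ECH1 (0.58, with 0 between), went the opposite way to LGALS4. Before LGALS8, with 2 protein-coding genes between, GPR137B had 0.67, the same sign as LGALS8, and HEATR1, directly after LGALS8, had -0.71. PLAAT4, directly after the unmeasured LGALS12, was 2.15-fold higher, with signals of 659.2 on the silenced array and 306.8 on the control array. For LGALS1, LGALS2, LGALS3BP, LGALS9 and LGALSL no neighbour reached 2-fold. Over all genes measured 6.38% reached it in either direction, and whether position plays a part was not tested.

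Of the galectins outside the 9 genes, LGALS13, LGALS14 and CLC had a probe set with 1 symbol, and all 3 were under the floor on both arrays, with summed signals of 108 on the silenced array and 119 on the control array.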
